A study of Mus musculus with 4 samples.

Results

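Smooth muscle nuclei of the mouse heart were picked out of single-nucleus RNA profiles by the genes detected in each nucleus. A nucleus was taken when it held at least 1 unique molecular identifier (UMI, a tag that marks a single captured RNA molecule) of Myh11, the smooth muscle myosin heavy chain, and UMIs of at least 2 further genes among Acta2, Tagln, Cnn1, Lmod1, Ntrk3, Carmn, Synpo2 and Smtn. It also had to show fewer of the pericyte genes Rgs5, Kcnj8, Abcc9, Colec11 and Vtn than of the smooth muscle list, and less than 2% of its UMIs from the cardiomyocyte genes Ttn, Ryr2 and Myh6. The rule found 336 nuclei among the 28216 deposited, of which 28128 passed the filters of at least 500 UMIs, at least 300 genes and at most 10% mitochondrial UMIs. It found 95 in the Q150X library taken 3 days after myocardial infarction (3dpMI), 137 in the WT 3dpMI library, 49 in the Q150X homeostasis library and 55 in the WT homeostasis library.

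The study asked what a premature stop in Vegfa, which encodes the vascular growth factor VEGF-A, does to the heart at rest and after infarction. The Q150X mice carry an allele made by CRISPR/Cas9 editing and the WT mice do not. The titles carry "ho" for Q150X and "wt" for WT, while the series text leaves it unclear whether both copies of Vegfa were edited. Each of the 4 groups is 1 library of nuclei from whole heart, and the labels give neither the number of hearts in a library nor the age or sex of the mice. No value below therefore has a replicate, no test was run, and every interval (95%) covers counting error only.

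Smooth muscle cells form the contractile wall of coronary arteries and arterioles. Calcium that enters through voltage-gated channels activates myosin light chain kinase, and nitric oxide acts against this through cyclic GMP and its kinase. Serum response factor, with myocardin or the MRTF coactivators, drives many contractile genes through a promoter element called the CArG box. In injured vessels these cells are known to lower contractile genes and to raise genes of matrix, migration and division, a shift called phenotypic modulation.

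The CArG boxes in the promoters of the contractile genes are shown first because the levels of these genes carry the main result. RefSeq promoter windows (build GRCm38.p6, an earlier build than the GRCm39 of the count files) were found for 32 of the 39 rule and contractile genes. A CArG box, which reads alike on both strands, stood within 250 bases before the start in 8 of their 45 promoters (17.8%), which belong to 7 genes, and in 482 of all 32851 promoters (1.47%). The box was searched as CC, then only A or T bases, then GG, with no mismatch allowed. A box with another base, or one outside the window, was not counted, so a gene without a match may still have one. Among the 15 genes that were highest in smooth muscle nuclei relative to all others, 13 had a window and 1 of 17 promoters (5.88%) held the box, that of Trpc6, a calcium-permeable channel. The windows below are read 5′ to 3′ on the strand of the gene, with the CArG box in capitals. A match is a description of the sequence, and no binding was measured.
Myl9, myosin regulatory light chain, chr2:156775278-156775337, plus strand, box 161 bases before the start: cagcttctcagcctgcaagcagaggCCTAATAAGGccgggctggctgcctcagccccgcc
Myl6, myosin essential light chain, chr10:128493025-128493084, minus strand, box 50 bases before the start: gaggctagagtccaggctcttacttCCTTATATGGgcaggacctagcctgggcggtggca
Vcl, vinculin, chr14:20929148-20929205, plus strand, box 227 bases before the start: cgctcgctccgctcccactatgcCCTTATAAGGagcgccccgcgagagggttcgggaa
Ldb3, a PDZ and LIM domain protein, chr14:34588682-34588741, minus strand, box 35 and 109 bases before 2 annotated starts: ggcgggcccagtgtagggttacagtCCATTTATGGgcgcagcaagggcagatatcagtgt
Filip1l, a filamin-interacting protein, chr16:57549155-57549214, plus strand, box 62 bases before the start: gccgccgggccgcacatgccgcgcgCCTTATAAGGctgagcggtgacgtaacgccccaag
Fhl1, a LIM domain protein, chrX:56779556-56779615, plus strand, box 102 bases before the start: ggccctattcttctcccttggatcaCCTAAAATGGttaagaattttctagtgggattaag
Dmd, dystrophin, chrX:82948747-82948806, plus strand, box 98 bases before the start: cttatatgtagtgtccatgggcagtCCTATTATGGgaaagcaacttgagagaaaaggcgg
Trpc6, chr9:8543995-8544054, plus strand, box 122 bases before the start: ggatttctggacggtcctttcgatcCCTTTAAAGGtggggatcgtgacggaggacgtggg

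The 3dpMI libraries were the deeper ones. The smooth muscle nuclei had median UMIs of 4240 in Q150X 3dpMI, 3261 in WT 3dpMI, 1134 in Q150X homeostasis and 835 in WT homeostasis, and together 482030, 590720, 80943 and 69967 UMIs in the same order. Library pairs shared 39 to 117 cell barcodes, none of them of a smooth muscle nucleus in both libraries. Levels are given in CPM, the UMIs of a gene scaled to a fixed total of UMIs over the smooth muscle nuclei of a library. These are shares of nuclear RNA, so a higher share of 1 group of genes lowers the others.

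The genes of the rule were present by construction and are a description only. Myh11 stood at 796.6 CPM in Q150X 3dpMI, 1271 in WT 3dpMI, 3521 in Q150X homeostasis and 3259 in WT homeostasis. Acta2, smooth muscle actin, stood at 531.1 CPM in Q150X 3dpMI, 531.6 in WT 3dpMI, 1260 in Q150X homeostasis and 1229 in WT homeostasis. Carmn, a long noncoding RNA of smooth muscle, and Synpo2, an actin-bundling protein, were likewise lower in both 3dpMI libraries. Carmn had 670.1 and 792.3 CPM in Q150X and WT 3dpMI, against 1359 and 1258 CPM in Q150X and WT homeostasis, and Synpo2 had 580.9 and 800.7 against 1853 and 1744. Lmod1 had 170.1 and 274.2 CPM in Q150X and WT 3dpMI, against 494.2 and 671.7 CPM in Q150X and WT homeostasis, and Ntrk3 18.7 and 44 against 234.7 and 114.3. Cnn1, calponin, was sparse, at 4.15 CPM in Q150X 3dpMI, 10.2 in WT 3dpMI, 74.1 in Q150X homeostasis and 0 in WT homeostasis. Tagln and Smtn did not follow the order of Myh11: Smtn, smoothelin, had 203.3 CPM in Q150X 3dpMI, 240.4 in WT 3dpMI, 259.4 in Q150X homeostasis and 171.5 in WT homeostasis.

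Detection was then compared between classes of nuclei. This too is a description only, since Acta2 and the pericyte genes were used to pick the nuclei. Acta2 had a UMI in 27.4% of smooth muscle nuclei in Q150X 3dpMI, 24.8% in WT 3dpMI, 46.9% in Q150X homeostasis and 49.1% in WT homeostasis when each nucleus was thinned to 500 UMIs. At the same 500 UMIs it was seen in at most 0.9% of pericyte nuclei and at most 2.2% of fibroblast nuclei in any library. Without thinning the smooth muscle shares were 69.5%, 64.2%, 59.2% and 69.1%. Pericyte genes were not absent: 24 of the 95 members in Q150X 3dpMI, 51 of 137 in WT 3dpMI, 28 of 49 in Q150X homeostasis and 40 of 55 in WT homeostasis had no gene of the pericyte list. Rgs5 reached 705.4, 785.5, 555.9 and 943.3 CPM in the smooth muscle nuclei of these libraries, against 1155, 1403, 2033 and 1581 CPM in their pericyte nuclei. Myocardin (Myocd), the coactivator of contractile genes, was found in the smooth muscle nuclei of every library and is described with the regulators.

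Some smooth muscle nuclei also held markers of another cell type. At least 3 of 12 fibroblast markers were detected in 56 of 95 smooth muscle nuclei in Q150X 3dpMI, 63 of 137 in WT 3dpMI, 8 of 49 in Q150X homeostasis and 1 of 55 in WT homeostasis. At least 3 of 10 macrophage markers were detected in 25, 13, 1 and 0 of them in that order, and at least 3 of 10 endothelial markers in 15, 31, 5 and 6. These counts are not at equal depth, and the 3dpMI nuclei were the deeper. With each nucleus thinned to 500 UMIs, the median share of UMIs from fibroblast markers was 0% in all 4 libraries, a floor that can hide a difference. With all UMIs the medians were 0.165% in Q150X 3dpMI, 0.104% in WT 3dpMI, 0.101% in Q150X homeostasis and 0% in WT homeostasis. The summed level of the fibroblast markers was 2458 CPM in Q150X 3dpMI, 2582 in WT 3dpMI, 1927 in Q150X homeostasis and 714.6 in WT homeostasis, against 6668 to 8370 CPM in the fibroblast nuclei of the 4 libraries. The defining macrophage and fibroblast markers were therefore not at 0 in the 3dpMI members. Members without 3 markers of any of these types, called the unmixed members below, numbered 30 in Q150X 3dpMI, 61 in WT 3dpMI, 38 in Q150X homeostasis and 49 in WT homeostasis. Results that move with the mixed nuclei are given for the unmixed members too, and what part the mixed nuclei have in the other results was not tested.

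At the edge of the rule the contractile levels were lower. The 30 contractile genes that the rule does not use summed to 8563 CPM in Q150X 3dpMI, 8163 in WT 3dpMI, 19908 in Q150X homeostasis and 20612 in WT homeostasis for the 21, 24, 14 and 18 members with exactly 2 further genes. In the 11, 30, 8 and 8 nuclei just outside, with Myh11 and exactly 1 further gene, the same sum was 4812, 6169, 12208 and 12260 CPM. Another 13 nuclei in Q150X 3dpMI, 17 in WT 3dpMI, 2 in Q150X homeostasis and 0 in WT homeostasis were left out because their pericyte genes were as many or more.

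Smooth muscle nuclei made up 1.17% (0.948 to 1.43) of all nuclei in Q150X 3dpMI, 1.5% (1.26 to 1.77) in WT 3dpMI, 0.756% (0.56 to 0.999) in Q150X homeostasis and 1.26% (0.947 to 1.63) in WT homeostasis. The Q150X share was the lower in both conditions, at 0.781 times WT (0.602 to 1.01) at 3dpMI and 0.603 times WT (0.411 to 0.884) at homeostasis. With every nucleus thinned to 500 UMIs before the rule was applied, 19, 36, 36 and 36 nuclei were found in the same library order, and the genotype ratios were 0.595 (0.341 to 1.04) at 3dpMI and 0.676 (0.427 to 1.07) at homeostasis. Thinning turned the injury comparison round. The share at 3dpMI was 1.55 times that at homeostasis in Q150X (1.1 to 2.18) and 1.19 times in WT (0.874 to 1.63), but 0.421 times (0.242 to 0.733) and 0.479 times (0.302 to 0.759) after thinning. At equal depth, then, the rule found smooth muscle nuclei less often at 3dpMI.

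**Figure D1:**
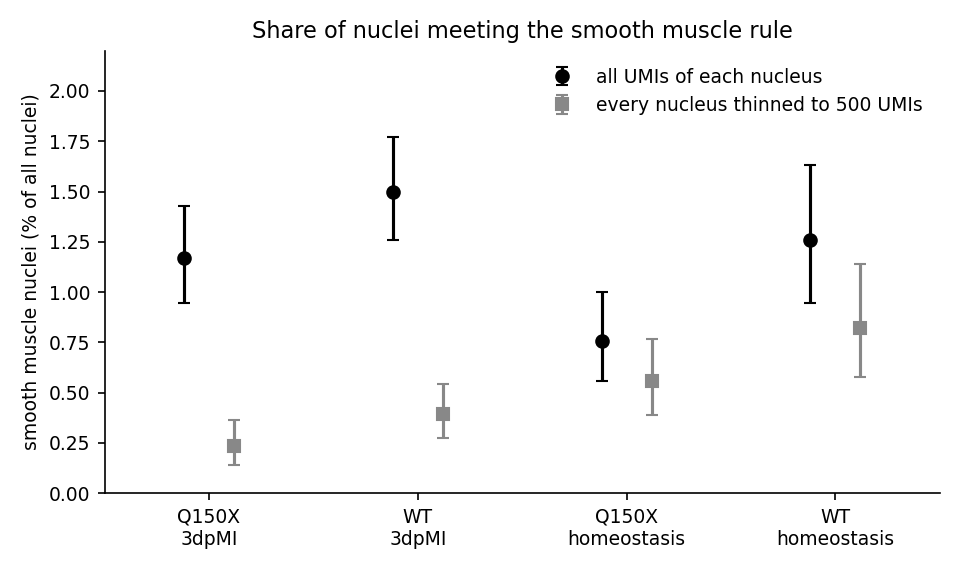
Smooth muscle nuclei as a percentage of all nuclei past the filters in each library, with every UMI and after each nucleus was thinned to 500 UMIs. Points are single libraries and bars are exact binomial (Clopper-Pearson) 95% intervals for counting error. With all UMIs the 3dpMI libraries of each genotype sit above homeostasis, and after thinning they sit below it, at 0.234% in Q150X 3dpMI and 0.393% in WT 3dpMI against 0.556% in Q150X homeostasis and 0.822% in WT homeostasis.

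The balance of smooth muscle to pericyte nuclei differed most in WT homeostasis. Smooth muscle nuclei were 38.6% (32.5 to 45) of both mural types together in Q150X 3dpMI, 28.3% (24.3 to 32.5) in WT 3dpMI, 21.5% (16.3 to 27.4) in Q150X homeostasis and 68.8% (57.4 to 78.7) in WT homeostasis. The WT homeostasis library held only 25 pericyte nuclei, against 151 in Q150X 3dpMI, 347 in WT 3dpMI and 179 in Q150X homeostasis. After thinning the shares were 44.2%, 31%, 31% and 80% in that order, with WT homeostasis again the highest.

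The genes with the highest levels in smooth muscle nuclei relative to all other nuclei were ranked by their lowest ratio over the 4 libraries. Or51e2, an odorant receptor, led, at 146.8 to 726.4 times the level in all other nuclei. It had 45.6 CPM in Q150X 3dpMI, 121.9 in WT 3dpMI, 148.3 in Q150X homeostasis and 285.8 in WT homeostasis. Slc38a11, a member of an amino acid transporter family, came next at 87.3 to 322.9 times, followed by Ccdc3, a secreted protein, at 61.8 to 212.4 times, and Kcnab1, a beta subunit of voltage-gated potassium channels, at 48.7 to 212 times. The other 11 were Stac, Trpc6, Dgkb, Map3k7cl, Mylk, Mark1, Cspg4, Cdh6, Notch3, Tbx3os1 and Gucy1a1. Cspg4 and Notch3 are also pericyte genes, and Notch3 stood at 910.7 CPM in smooth muscle nuclei and 990.1 in pericyte nuclei of Q150X 3dpMI. Gucy1a1 had 323.6 CPM in smooth muscle nuclei and 412 in pericyte nuclei of Q150X 3dpMI, and 338.6 and 387 CPM in WT 3dpMI. Tbx3os1 had 76.8 and 105.6 CPM in Q150X 3dpMI and 110 and 134.2 CPM in WT 3dpMI. In WT homeostasis, with only 25 pericyte nuclei, Gucy1a1 had 886.1 and 561.1 CPM, and Tbx3os1 was close, at 142.9 and 127.5. In Q150X homeostasis Gucy1a1 had 654.8 and 551.3 CPM, Tbx3os1 135.9 and 172, and Notch3 716.6 and 804.2. These ratios describe nuclei that were chosen by expression and are not a test of what marks smooth muscle.

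The level of the contractile genes was lower after infarction in both genotypes. The 30 genes outside the rule summed to 13244 CPM (12921 to 13573) in Q150X 3dpMI, 14677 (14370 to 14989) in WT 3dpMI, 27167 (26044 to 28327) in Q150X homeostasis and 29300 (28045 to 30596) in WT homeostasis. Both 3dpMI libraries lay below both homeostasis libraries, and Q150X 3dpMI lay lowest. The ratio of 3dpMI to homeostasis was 0.488 (0.464 to 0.512) in Q150X and 0.501 (0.477 to 0.526) in WT. In the unmixed members the sums were 17537 CPM in Q150X 3dpMI, 22412 in WT 3dpMI, 35353 in Q150X homeostasis and 34659 in WT homeostasis, with ratios of 0.496 in Q150X and 0.647 in WT. With the rule applied at 500 UMIs the ratios were 0.625 in Q150X and 0.735 in WT. In pericyte nuclei the same genes summed to 6019, 6387, 7304 and 6503 CPM, and in fibroblast nuclei to 5621, 5405, 4184 and 3900, in the order Q150X 3dpMI, WT 3dpMI, Q150X homeostasis and WT homeostasis. Mitochondrial genes took 0.0878% of the UMIs of the smooth muscle nuclei in Q150X 3dpMI, 0.164% in WT 3dpMI, 0.710% in Q150X homeostasis and 1.16% in WT homeostasis, and the part of this difference between libraries in the contractile result was not tested.

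Nucleus by nucleus the values overlapped. The contractile genes took a median of 1.265% of a nucleus's UMIs in Q150X 3dpMI (range 0.328 to 4.93%), 1.457% in WT 3dpMI (0.175 to 5.32%), 2.656% in Q150X homeostasis (0.788 to 11.5%) and 3.559% in WT homeostasis (0.704 to 8.14%). Thinned to 500 UMIs, the medians were 1.4%, 1.4%, 2.6% and 3.4% in the same order. These are still the nuclei chosen at full depth, so this thinning does not even out which nuclei the rule picked. Applied at 500 UMIs, the rule found 19, 36, 36 and 36 nuclei. The nuclei of a library share their source and are not replicates.

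**Figure D2:**
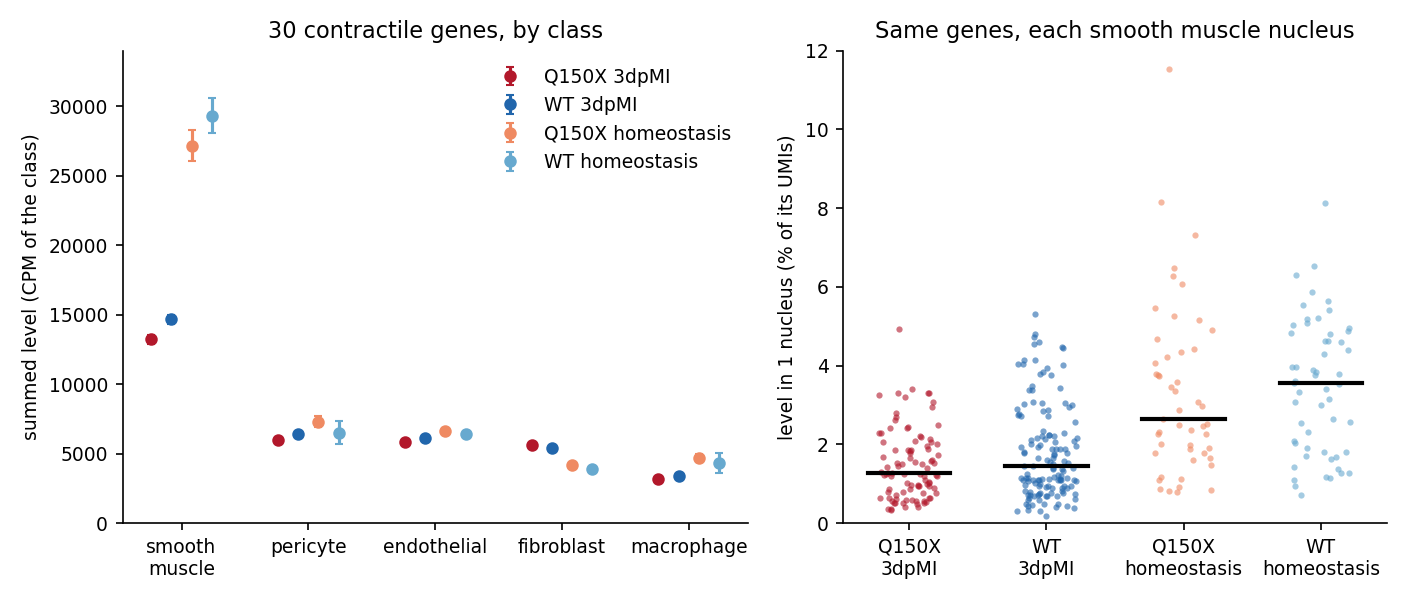
Left, the summed level of 30 contractile genes outside the rule, in CPM of each class of nuclei, by library; right, the percentage of UMIs that these genes take in each smooth muscle nucleus, with a bar at the median. Smooth muscle nuclei stand above pericyte, fibroblast, endothelial and macrophage nuclei in every library, at 13244 and 14677 CPM in Q150X and WT 3dpMI and 27167 and 29300 CPM in Q150X and WT homeostasis.

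Gene by gene, 11 contractile genes were at 0.5 times the homeostasis level or below in each genotype. Of 28 genes with at least 20 UMIs in the Q150X comparison, 22 were lower at 3dpMI, 11 of them past 2-fold, and 6 were higher, none past 2-fold. Over all 5363 genes measured in that comparison 67.1% were higher by any size, 27.8% were past 2-fold higher and 6.82% past 2-fold lower. Of 30 measured in WT, 25 were lower at 3dpMI, 11 past 2-fold, and 5 higher, 1 past 2-fold, against 65.7% higher by any size, 30.4% past 2-fold higher and 6.43% past 2-fold lower over all 5704 genes. The median log2 ratio of the contractile genes was -0.60 in Q150X and -0.71 in WT, whereas the median of all genes was 0.33 in Q150X and 0.24 in WT. In the unmixed members the contractile medians were -0.99 in Q150X and -0.26 in WT.

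Sorbs2, an adaptor of the actin cytoskeleton, and dystrophin were among the contractile genes furthest below homeostasis. Sorbs2 had 292.5 CPM in Q150X 3dpMI, 931.1 in WT 3dpMI, 3138 in Q150X homeostasis and 3773 in WT homeostasis, which is 0.0932 times (0.0753 to 0.115) in Q150X and 0.247 times (0.213 to 0.287) in WT. Dmd had 954.3 CPM in Q150X 3dpMI, 1928 in WT 3dpMI, 5349 in Q150X homeostasis and 7089 in WT homeostasis. For both genes the 3dpMI libraries lay below homeostasis and Q150X 3dpMI lay lowest. Itga8, the integrin alpha-8 chain, followed the same order, with 72.6 CPM in Q150X 3dpMI, 260.7 in WT 3dpMI, 543.6 in Q150X homeostasis and 786.1 in WT homeostasis. The order held in the unmixed members too, in which Sorbs2 had 861.9, 1652, 4083 and 4601 CPM, Dmd 2096, 3579, 6900 and 8588 CPM, and Itga8 298, 548.7, 723.6 and 1043 CPM. The cardiomyocyte genes Ttn, Ryr2 and Myh6 summed to 734.4 CPM in Q150X 3dpMI and 1667 in WT 3dpMI. At homeostasis they had 2879 CPM in Q150X and 2044 in WT. Their 3dpMI to homeostasis ratio was 0.255 (0.216 to 0.302) in Q150X and 0.816 (0.684 to 0.979) in WT. In the unmixed members it was 0.112 in Q150X and 0.835 in WT. Their part in the levels above was not tested.

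The actin-associated proteins Palld, Pdlim3 and Ldb3 were also lower at 3dpMI. Palladin had 199.2 CPM in Q150X 3dpMI, 248.8 in WT 3dpMI, 815.4 in Q150X homeostasis and 743.2 in WT homeostasis. Ldb3 was at 0.173 times (0.105 to 0.283) its homeostasis level in Q150X and 0.489 times (0.310 to 0.798) in WT, and Pdlim3 at 0.252 (0.158 to 0.407) and 0.333 times (0.21 to 0.542). Mylk, the kinase that switches on smooth muscle myosin, moved less, with 622.4 CPM in Q150X 3dpMI, 712.7 in WT 3dpMI, 815.4 in Q150X homeostasis and 1172 in WT homeostasis. Its ratio was 0.763 (0.583 to 1.01) in Q150X and 0.608 (0.479 to 0.78) in WT, and in the unmixed members 1.002 in Q150X and 0.829 in WT. Not every member was lower: Cald1, caldesmon, had 2353 CPM in Q150X 3dpMI and 1643 in Q150X homeostasis, and 1915 CPM in WT 3dpMI against 1672 in WT homeostasis. Vcl was level, at 0.999 times (0.756 to 1.34) in Q150X and 1.03 times (0.712 to 1.53) in WT.

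Among the genes with a CArG box shown above, the injury ratios went both ways. Dmd (0.178 in Q150X, 0.272 in WT) and Ldb3 were lower at 3dpMI, Vcl was level, and Fhl1 was at 1.81 times (0.999 to 3.58) in Q150X and 2.27 times (0.941 to 7.16) in WT, with intervals that include 1. Myl9 rested on 4 UMIs in Q150X homeostasis and 5 in WT homeostasis, with ratios of 1.51 (0.542 to 5.84) in Q150X and 0.90 (0.354 to 2.93) in WT. Trpc6 was higher, at 520.7 CPM in Q150X 3dpMI, 428.3 in WT 3dpMI, 123.5 in Q150X homeostasis and 228.7 in WT homeostasis.

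**Figure D3:**
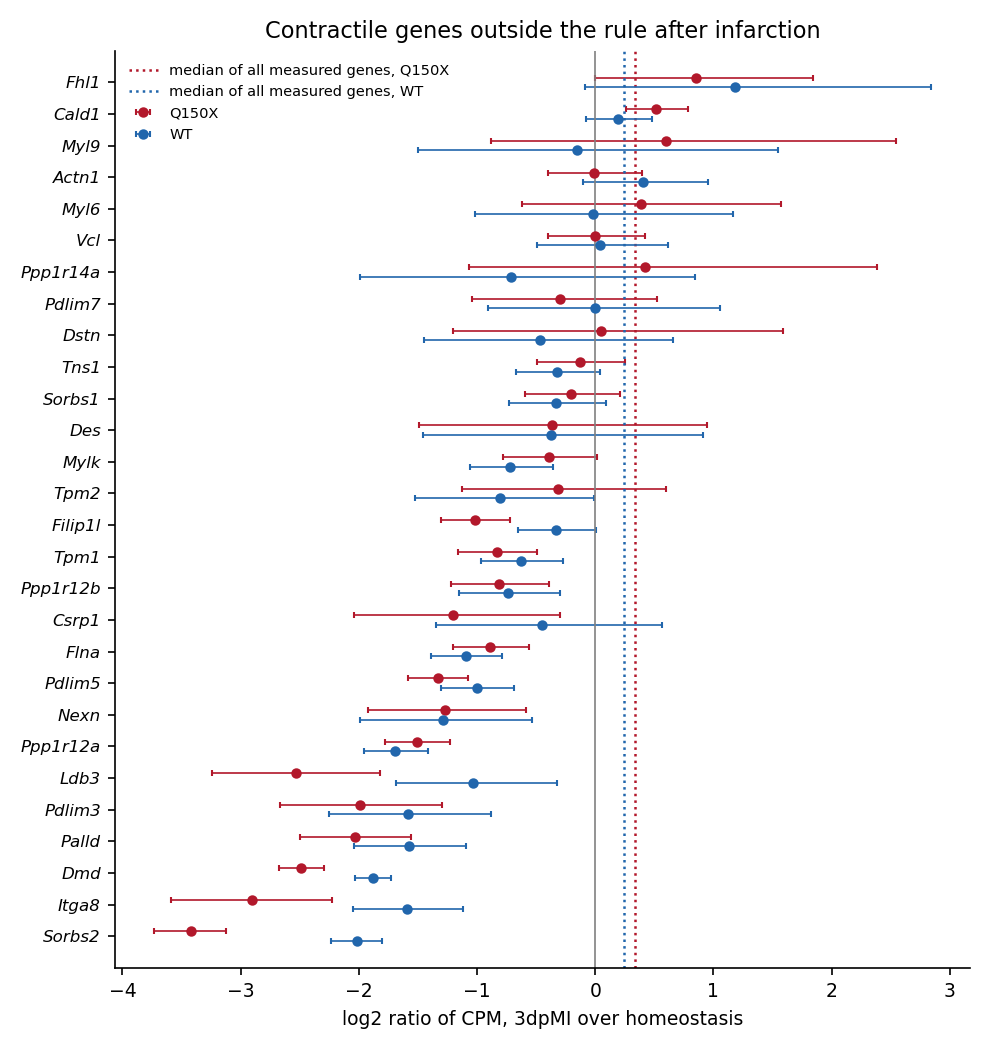
Log2 ratio of the 3dpMI to the homeostasis level of 28 contractile genes in smooth muscle nuclei, with Q150X above WT for each gene and exact 95% intervals for counting error. The dotted lines mark the median of all genes measured, 0.33 in Q150X and 0.24 in WT; Sorbs2, Dmd, Itga8, Palld, Pdlim3 and Ldb3 lie well to the left of them in both genotypes, and Cald1, Vcl and Fhl1 do not.

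Of the regulators of smooth muscle genes, myocardin was lower at 3dpMI in both genotypes. Myocd had 89.2 CPM in Q150X 3dpMI, 176.1 in WT 3dpMI, 518.9 in Q150X homeostasis and 857.5 in WT homeostasis, with ratios of 0.172 (0.110 to 0.270) in Q150X and 0.205 (0.148 to 0.287) in WT. Prdm16, a zinc finger transcription regulator of arterial cells, had 62.2 CPM in Q150X 3dpMI, 262.4 in WT 3dpMI, 457.1 in Q150X homeostasis and 1072 in WT homeostasis. Both genes were lowest in Q150X 3dpMI, and highest in WT homeostasis. Zeb2, a zinc finger repressor, went the other way, with 2048 CPM in Q150X 3dpMI, 1332 in WT 3dpMI, 679.5 in Q150X homeostasis and 528.8 in WT homeostasis. Of the regulator list as a whole, 10 of 19 measured were higher and 9 lower in Q150X, and 9 of 20 were higher and 11 lower in WT, against 67.1% of all genes higher in Q150X and 65.7% in WT.

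Among the membrane channels some were lower and others higher at 3dpMI. Kcnma1, the pore of the large-conductance calcium-activated potassium channel that relaxes arteries, had 27 CPM in Q150X 3dpMI, 115.1 in WT 3dpMI, 555.9 in Q150X homeostasis and 786.1 in WT homeostasis. That is 0.0485 times (0.024 to 0.0915) in Q150X, where only 13 UMIs were seen at 3dpMI, and 0.146 times (0.101 to 0.213) in WT. In the unmixed members the ratios were 0.179 in Q150X and 0.230 in WT. Kcnab1 was at 0.340 times (0.289 to 0.4) its homeostasis level in Q150X and 0.318 times (0.279 to 0.364) in WT, and Cacnb2, a beta subunit of the voltage-gated calcium channel, at 0.335 (0.285 to 0.395) and 0.375 times (0.323 to 0.436). The pore-forming subunit Cacna1c stayed nearer its homeostasis level, with 3016 CPM in Q150X 3dpMI, 3238 in WT 3dpMI, 3064 in Q150X homeostasis and 4288 in WT homeostasis. Trpc6 was at 4.21 times (2.25 to 8.9) in Q150X and 1.87 times (1.13 to 3.33) in WT. Piezo2, a mechanically gated channel, had 150 UMIs in 33 nuclei of Q150X 3dpMI and 44 UMIs in 22 nuclei of WT 3dpMI, against 1 UMI in Q150X homeostasis and 0 in WT homeostasis. Over the list of calcium and ion channels, 8 of 22 measured were higher and 14 lower in Q150X, and 11 of 26 were higher and 15 lower in WT, against 67.1% of all genes higher in Q150X and 65.7% in WT. Past 2-fold, 3 were higher and 6 lower in Q150X, and 4 higher and 5 lower in WT.

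The nitric oxide and cyclic nucleotide genes were lower in sum, at 0.821 times (0.775 to 0.871) the homeostasis level in Q150X and 0.702 times (0.663 to 0.744) in WT. In the unmixed members these ratios were 0.935 in Q150X and 0.921 in WT. Gucy1a1, a subunit of the nitric oxide receptor guanylate cyclase, had 323.6 CPM in Q150X 3dpMI, 338.6 in WT 3dpMI, 654.8 in Q150X homeostasis and 886.1 in WT homeostasis. Prkg1, the cyclic GMP-dependent kinase, had 5568 CPM in Q150X 3dpMI, 5664 in WT 3dpMI, 7511 in Q150X homeostasis and 8933 in WT homeostasis. Pde4d, which breaks down cyclic AMP, was at 4.09 times (2.11 to 9.05) in Q150X and 2.04 times (1.01 to 4.83) in WT, but in the unmixed members at 2.88 times in Q150X and 0.663 times in WT. Receptors of vasoconstrictors and RhoA genes stayed close to homeostasis in sum, at 0.909 times in both Q150X (0.821 to 1.01) and WT (0.823 to 1.005).

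Genes of phenotypic modulation were higher at 3dpMI. Of 23 measured in Q150X, 20 were higher, 15 past 2-fold, and 3 lower, 2 past 2-fold. Of 24 measured in WT, 22 were higher, 20 past 2-fold, and 2 lower, none past 2-fold. Over all genes measured, 67.1% were higher and 27.8% past 2-fold higher in Q150X, and 65.7% and 30.4% in WT. These counts and shares lean towards higher, since a gene needed 20 UMIs over both libraries and the 3dpMI libraries held most of the UMIs. Genes near 0 at homeostasis thus entered through 3dpMI alone. In WT, Spp1 counted on 22 UMIs against 0, with an interval from 0.649, and Mgp on 81 against 1. The same leaning holds for the other lists in the injury comparisons. The sums do not use this filter. The modulation genes summed to 6278 CPM in Q150X 3dpMI, 4593 in WT 3dpMI, 2372 in Q150X homeostasis and 986.2 in WT homeostasis, a ratio of 2.65 (2.29 to 3.08) in Q150X and 4.66 (3.67 to 6) in WT. The ratios were 2.39 in Q150X and 4.3 in WT in the unmixed members. Several of these genes, such as Fn1, Postn and Spp1, are also high in activated fibroblasts or macrophages, whose markers were present in the same nuclei.

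Runx1, a transcription factor of this shift, had 612 CPM in Q150X 3dpMI, 264.1 in WT 3dpMI, 123.5 in Q150X homeostasis and 0 in WT homeostasis. Ccn2, connective tissue growth factor, had 446 CPM in Q150X 3dpMI, 174.4 in WT 3dpMI, 210 in Q150X homeostasis and 42.9 in WT homeostasis. The Q150X level lay above WT at 3dpMI for both genes, and at homeostasis for Ccn2. The WT homeostasis value rested on 0 UMIs for Runx1 and 3 for Ccn2. The Runx1 level in Q150X homeostasis rested on 10 UMIs in 4 nuclei, and a single nucleus gave 70% of them. Runx1 had too few UMIs at homeostasis to count as measured, so no genotype direction is drawn for it there. Tnc, tenascin C, had 269 UMIs in Q150X 3dpMI and 198 in WT 3dpMI, with none in either homeostasis library; a single nucleus gave 58.4% of them in Q150X 3dpMI and another 46.5% in WT 3dpMI. Fn1, fibronectin, was at 15.5 times (5.23 to 75.4) in Q150X and 3.09 times (1.54 to 7.26) in WT.

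Of the matrix genes, the collagens Col3a1 and Col5a1 were higher at 3dpMI. Col3a1 had 1170 CPM in Q150X 3dpMI, 973.4 in WT 3dpMI, 148.3 in Q150X homeostasis and 57.2 in WT homeostasis. Col5a1 was at 6.28 times (3.14 to 14.7) its homeostasis level in Q150X and 11.5 times (3.91 to 56.2) in WT, where homeostasis had 3 UMIs. The basement membrane collagens Col4a1 and Col4a2 were higher by less, with Col4a1 at 1456 CPM in Q150X 3dpMI, 1011 in WT 3dpMI, 568.3 in Q150X homeostasis and 600.3 in WT homeostasis. In the unmixed members Col3a1 had 617.2, 465.7, 103.4 and 40.9 CPM and Col4a1 1607, 905.9, 671.9 and 736.1 CPM in that order. Elastin, the elastic fibre protein of the arterial wall, was lower, with 85.1 CPM in Q150X 3dpMI, 206.5 in WT 3dpMI, 444.8 in Q150X homeostasis and 400.2 in WT homeostasis. The ratio of Eln was 0.191 (0.119 to 0.308) in Q150X and 0.516 (0.340 to 0.809) in WT, but 1.09 in the unmixed WT members. Over the whole matrix list 21 of 33 measured were higher and 12 lower in Q150X, and 28 of 35 were higher and 7 lower in WT, against 67.1% of all genes higher in Q150X and 65.7% in WT.

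Genes of inflammation and of the interferon response were higher in sum at 3dpMI. The inflammation and cytokine list reached 3228 CPM in Q150X 3dpMI, 3282 in WT 3dpMI, 1705 in Q150X homeostasis and 1372 in WT homeostasis, with 11 of 13 measured genes higher in Q150X and 18 of 20 in WT, against 67.1% of all genes in Q150X and 65.7% in WT. The interferon list stood at 1402 CPM in Q150X 3dpMI, 1547 in WT 3dpMI, 654.8 in Q150X homeostasis and 843.3 in WT homeostasis. The 10 macrophage markers summed to 1056 CPM in Q150X 3dpMI, 699.1 in WT 3dpMI, 840.1 in Q150X homeostasis, where 1 nucleus held at least 3 of them, and 57.2 in WT homeostasis, and in the unmixed members only 6 inflammation genes and 1 interferon gene were measured in either genotype. Signalling genes of the Notch, PDGF and TGF-beta pathways were lower in sum, at 0.587 times (0.544 to 0.634) homeostasis in Q150X and 0.569 times (0.529 to 0.612) in WT. Of these genes 15 of 27 measured were higher in Q150X and 18 of 29 in WT, against 67.1% and 65.7% of all genes. Among them Pdgfrb, the receptor through which platelet-derived growth factor acts on mural cells, was at 2.18 times (1.49 to 3.33) in Q150X and 1.53 times (1.03 to 2.38) in WT, and Pdgfd at 0.157 times (0.107 to 0.229) and 0.305 times (0.241 to 0.389). Notch3, a receptor that maintains arterial smooth muscle, was at 1.27 times (0.965 to 1.70) in Q150X and 0.986 times (0.77 to 1.28) in WT. Integrin and dystroglycan genes kept their sum, at 1.06 times (0.961 to 1.18) in Q150X and 0.991 times (0.893 to 1.1) in WT.

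**Figure D4:**
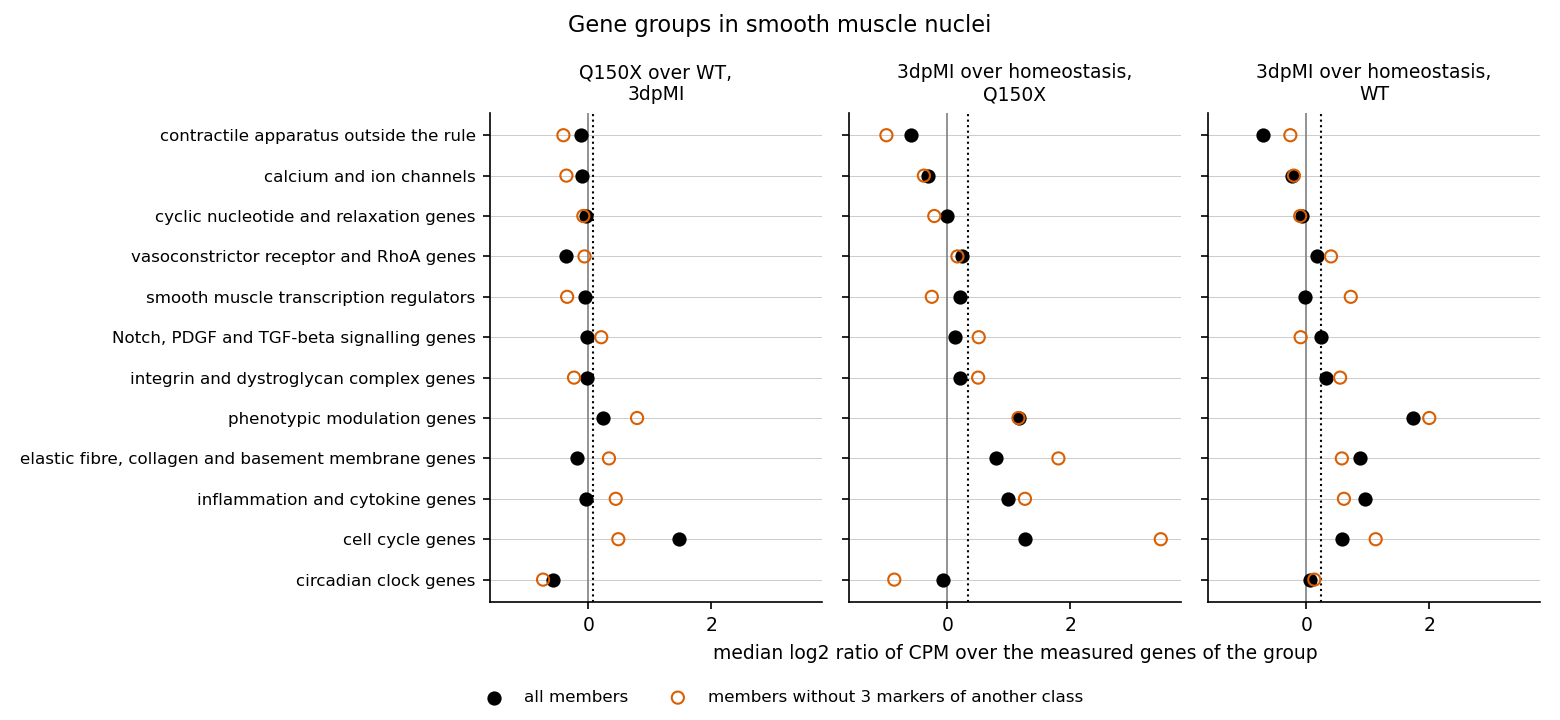
Median log2 ratio of 12 gene groups in smooth muscle nuclei for the comparisons of 3dpMI with homeostasis in Q150X and in WT and of Q150X with WT at 3dpMI. Black points are all members, open orange points the unmixed members, and the dotted line is the median of all genes; the contractile group lies left of it in both injury panels (-0.60 in Q150X, -0.71 in WT) and the phenotypic modulation group right of it (1.17 in Q150X, 1.73 in WT).

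Of all genes past 2-fold in either direction, 80.3% were higher at 3dpMI in Q150X and 82.5% in WT. These shares became 67.5% and 71.9% when ratios were divided by their median, and 58.5% and 51.5% when the deeper sums were thinned to the total of the shallower ones. The injury comparisons in Q150X and WT share no library. Among 4903 genes measured in both, 1257 were past 2-fold higher in Q150X (25.6%) and 1428 in WT (29.1%), and 607 were in both lists, which is 48.3% of the Q150X list and 42.5% of the WT list. Past 2-fold lower were 350 genes in Q150X (7.14%) and 276 in WT (5.63%), and 126 were in both, 36% of the Q150X list and 45.7% of the WT list. By the rule for single genes, those furthest below homeostasis in Q150X were Kcnma1, Sorbs2, Slc38a11, Rgs7bp and Dtna, and in WT Nebl, Tmeff2, Kcnma1, Slc38a11 and Ppm1l. Slc38a11, the second most specific gene of these nuclei, had 35.3 CPM in Q150X 3dpMI, 106.6 in WT 3dpMI, 531.2 in Q150X homeostasis and 671.7 in WT homeostasis. Dtna, alpha-dystrobrevin, a partner of dystrophin, was at 0.084 times (0.0503 to 0.137) in Q150X and 0.274 times (0.179 to 0.429) in WT. Rgs7bp, which binds G protein regulators, was at 0.056 times (0.0217 to 0.129) in Q150X and 0.228 times (0.142 to 0.374) in WT. Ppm1l, a protein phosphatase, was at 0.0964 times (0.0617 to 0.148) in Q150X and 0.17 times (0.122 to 0.239) in WT. Tmeff2, a transmembrane protein, was at 0.0904 times (0.0305 to 0.244) in Q150X and 0.0808 times (0.039 to 0.163) in WT. Nebl, nebulette, took 50.9% of its WT homeostasis UMIs from a single nucleus, so its ratio of 0.0748 (0.0479 to 0.116) in WT rests largely on that nucleus.

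Furthest above homeostasis by the same rule were Gpr176, Diaph3, Rad51b, Piezo2 and Mcph1 in Q150X, and Cmss1, Adam12, Camk1d, Cdk8 and Col3a1 in WT. Gpr176, a G protein-coupled receptor, had 204 UMIs in 49 nuclei of Q150X 3dpMI and 167 UMIs in 41 nuclei of WT 3dpMI, with none in either homeostasis library. Diaph3, a formin that builds actin filaments, had 466.8 CPM in Q150X 3dpMI, 169.3 in WT 3dpMI, 24.7 in Q150X homeostasis and 14.3 in WT homeostasis. Adam12, a membrane metalloprotease, had 771.7 CPM in Q150X 3dpMI, 560.3 in WT 3dpMI, 24.7 in Q150X homeostasis and 0 in WT homeostasis. With the rule applied at 500 UMIs the log2 ratio of Adam12 in WT was -0.55, that of Mcph1 in Q150X -1.92 and that of Rad51b in Q150X 0.41. Cmss1 had 17958 CPM in WT 3dpMI against 1186 in WT homeostasis, 15.1 times (12.2 to 19), and was also higher at WT 3dpMI in other classes, at 11.9 times in pericyte nuclei, 12 in fibroblast nuclei and 11.1 in endothelial nuclei. Cdk8 and Camk1d were at 16.4 times (9.37 to 31.8) and 16.9 times (9.41 to 33.9) in WT and at 4.56 times (3.03 to 7.16) and 4.94 times (3.44 to 7.37) in Q150X. Other classes had higher levels at WT 3dpMI as well, with Cdk8 at 11.6 times in pericyte nuclei, 3.82 in fibroblast nuclei and 13.1 in endothelial nuclei, and Camk1d at 17.2, 3.65 and 21.1 times.

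The genotypes were then compared at 3dpMI. Of 7763 genes measured, 5.55% were past 2-fold higher and 5.06% past 2-fold lower in Q150X relative to WT, and 56% were higher by any size. The contractile sum in Q150X was 0.902 times that in WT (0.874 to 0.932), and 0.783 times in the unmixed members. Of 29 contractile genes measured, 12 were higher and 17 lower in Q150X, where 56% of all genes were higher, with none past 2-fold higher and 4 past 2-fold lower. These 4 were Itga8 at 0.279 times (0.187 to 0.404), Sorbs2 at 0.314 (0.259 to 0.379), Ldb3 at 0.446 (0.295 to 0.659) and Dmd at 0.495 (0.443 to 0.552). In the unmixed members their ratios were 0.543 for Itga8, 0.522 for Sorbs2, 0.407 for Ldb3 and 0.586 for Dmd. Unmixed members were not screened for cardiomyocyte markers. The cardiomyocyte genes Ttn, Ryr2 and Myh6 summed to 734.4 CPM in Q150X 3dpMI and 1667 in WT 3dpMI. That is 0.440 times (0.389 to 0.498), and 0.201 times in the unmixed members. Their part in the contractile ratios was not tested. The median log2 ratio of the contractile list was -0.11 over all members and -0.41 over the unmixed members, where 3 of 27 genes were higher in Q150X.

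Genes outside the contractile list were lower in Q150X 3dpMI than in WT 3dpMI as well. Ltbp1, which holds latent TGF-beta in the matrix, had 66.4 CPM in Q150X 3dpMI and 336.9 in WT 3dpMI, 0.197 times (0.131 to 0.287), and 0.278 times in the unmixed members. Adamtsl1, a secreted ADAMTS-like protein, had 14.5 CPM in Q150X and 108.3 in WT, and Stum 6.22 and 62.6 CPM. Prdm16 was at 0.237 times (0.155 to 0.352), Kcnma1 at 0.234 times (0.119 to 0.428), Eln at 0.412 times (0.282 to 0.591) and Adcy5, an adenylyl cyclase, at 0.346 times (0.249 to 0.473). Pdgfd, a growth factor for smooth muscle, had 116.2 CPM in Q150X 3dpMI, 431.7 in WT 3dpMI, 741.3 in Q150X homeostasis and 1415 in WT homeostasis, and its Q150X to WT ratio at 3dpMI was 0.269 (0.198 to 0.361), or 0.510 in the unmixed members. Il33 was also among the lowest by ratio, but a single nucleus gave 90.9% of its WT UMIs. Likewise Pcdh11x and Sntg1, the highest by ratio, took 96.8% and 93.6% of their Q150X 3dpMI UMIs from 1 nucleus.

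Several modulation and growth factor genes were higher in Q150X 3dpMI. Spp1, osteopontin, had 78 UMIs in 38 nuclei of Q150X 3dpMI and 22 UMIs in 20 nuclei of WT 3dpMI, 4.35 times (2.68 to 7.33), and 5 times in the unmixed members. Runx1 was at 2.32 times WT (1.90 to 2.83) and Ccn2 at 2.56 times (2.01 to 3.27). Tgfb3 was at 2.37 times (1.71 to 3.31) and Tgfb2, another TGF-beta ligand, at 1.94 times (1.38 to 2.75). Piezo2 was at 4.18 times (2.97 to 5.99), and at 2.92 times in the unmixed members. Over the modulation list 18 of 27 measured were higher in Q150X and 9 lower, 5 past 2-fold higher and 1 past 2-fold lower, against 56% of all genes higher and 5.55% past 2-fold higher. The sum of the list was 1.37 times WT (1.30 to 1.44). Macrophage markers were higher in the Q150X members too, at 1056 CPM in Q150X 3dpMI and 699.1 in WT 3dpMI, and endothelial markers were lower, at 1048 and 1874 CPM. The part of these in the genotype ratios was not tested beyond the values for unmixed members.

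Genes of mitosis set Q150X 3dpMI apart from the other libraries. Of 32 cell cycle genes measured in Q150X and WT at 3dpMI, 29 were higher in Q150X, 21 past 2-fold, and 3 lower, none past 2-fold, against 56% of all genes higher and 5.55% past 2-fold higher. The cell cycle genes summed to 3398 CPM in Q150X 3dpMI, 1551 in WT 3dpMI, 654.8 in Q150X homeostasis and 929 in WT homeostasis, with 2.19 times (2.02 to 2.38) as much in Q150X as in WT at 3dpMI and 2.59 times in the unmixed members. The median log2 ratio was 1.48, 0.49 over the 8 genes measured in the unmixed members, and -0.07 over the few measured with the rule applied at 500 UMIs. Mki67, a protein of dividing nuclei, had 75 UMIs in 28 nuclei of Q150X 3dpMI and 21 UMIs in 14 nuclei of WT 3dpMI, with none in either homeostasis library. Top2a, the mitotic topoisomerase, had 130.7 CPM in Q150X 3dpMI and 20.3 in WT 3dpMI, 6.43 times (3.44 to 13.1). The DNA repair glycosylase Neil3 and the kinesin Kif4 were the other genes of this kind named by the rule, with 76.8 and 89.2 CPM in Q150X 3dpMI against 8.46 and 13.5 CPM in WT 3dpMI. With the rule applied at 500 UMIs their log2 ratios were 0.08 for Neil3 and 0.67 for Kif4.

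Counted by nucleus, 24 of 95 smooth muscle nuclei (25.3%, 16.9 to 35.2) in Q150X 3dpMI held at least 3 of 20 mitosis genes, against 9 of 137 (6.57%, 3.05 to 12.1) in WT 3dpMI. None did in the 49 of Q150X homeostasis, which allows a share of up to 7.25%, or in the 55 of WT homeostasis, which allows up to 6.49%. This count was chosen after the cell cycle values were seen. Among the unmixed members it was 7 of 30 (23.3%) in Q150X 3dpMI and 1 of 61 (1.64%) in WT 3dpMI. With all smooth muscle nuclei chosen at full depth and then thinned to 500 UMIs, at least 1 of the genes was seen in 25.3% in Q150X 3dpMI, 8.03% in WT 3dpMI, 0% in Q150X homeostasis and 1.82% in WT homeostasis. The same count of 3 genes gave 8.61% of pericyte nuclei in Q150X 3dpMI and 3.46% in WT 3dpMI, 21.8% and 14.5% of fibroblast nuclei, 15.6% and 6.63% of endothelial nuclei, and 13.9% and 16.5% of macrophage nuclei. The 24 smooth muscle nuclei of Q150X 3dpMI were deep, with a median of 7646 UMIs against 3640 in the other 71, and 16 of them held 3 fibroblast markers. Their contractile genes summed to 11913 CPM, against 14104 CPM in the other 71 and 5621 CPM in fibroblast nuclei of that library. The 9 nuclei of WT 3dpMI had a median of 6783 UMIs against 3024 in the other 128, and 8 of them held 3 fibroblast markers. Their contractile genes summed to 8237 CPM, against 15682 CPM in the other 128.

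**Figure D5:**
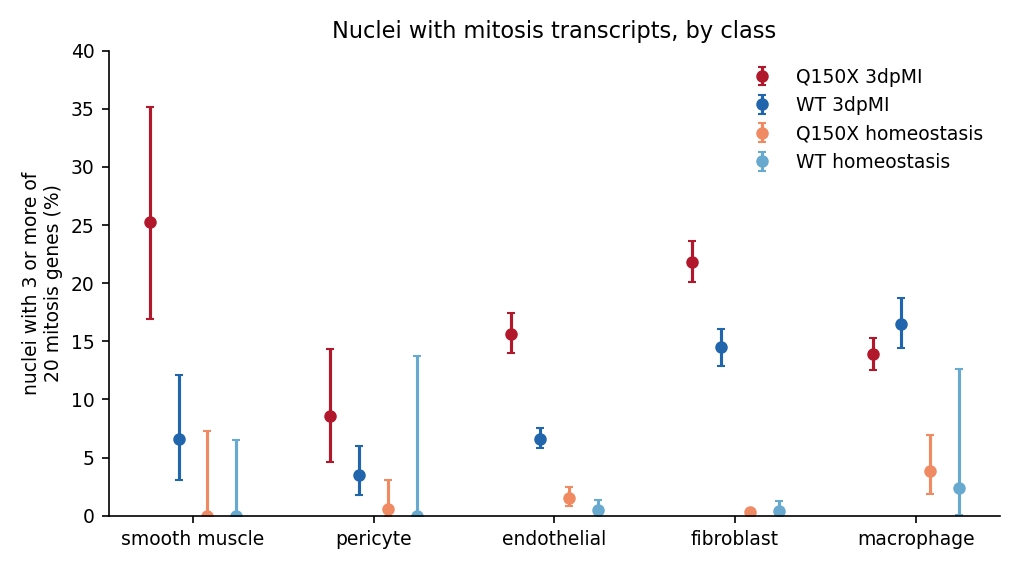
Percentage of nuclei with at least 3 of 20 mitosis genes, by class and library, with exact binomial (Clopper-Pearson) 95% intervals. Smooth muscle nuclei of Q150X 3dpMI stand at 25.3%, above those of WT 3dpMI at 6.57% and of both homeostasis libraries at 0%; endothelial and fibroblast nuclei also have higher shares in Q150X 3dpMI than in WT 3dpMI.

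Circadian clock genes were lower in Q150X 3dpMI. They summed to 1888 CPM in Q150X 3dpMI, 2829 in WT 3dpMI, 3966 in Q150X homeostasis and 3259 in WT homeostasis, and the ratio of Q150X to WT at 3dpMI was 0.667 (0.615 to 0.724), or 0.578 in the unmixed members and 0.835 (0.651 to 1.07) with the rule applied at 500 UMIs. Of 13 measured, 10 were lower in Q150X, 4 past 2-fold, and 3 higher, none past 2-fold, where 56% of all genes were higher and 5.06% past 2-fold lower. Hlf, an output transcription factor of the clock, had 2 UMIs in Q150X 3dpMI and 35 in WT 3dpMI, 0.07 times (0.00816 to 0.273), but its log2 ratio was -0.07 with the rule applied at 500 UMIs. Hlf was lower in Q150X 3dpMI in other classes too, at 0.49 times WT in pericyte nuclei, 0.48 in fibroblast nuclei and 0.38 in endothelial nuclei. Tef, of the same family, had 47.7 CPM in Q150X 3dpMI and 137.1 in WT 3dpMI, 0.348 times (0.209 to 0.559).

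Without injury the contractile genes stood at similar levels in both genotypes. Of 1464 genes measured in Q150X and WT homeostasis, 8.33% were past 2-fold higher and 6.9% past 2-fold lower in Q150X, and 48.6% were higher by any size. Of 22 contractile genes measured, 11 were higher and 11 lower in Q150X and none was past 2-fold, and the sum was 0.927 times WT (0.873 to 0.985), or 1.02 times in the unmixed members. Pdgfd was at 0.524 times (0.374 to 0.729), Kcnab1 at 0.631 times (0.528 to 0.752) and Prdm16 at 0.426 times (0.280 to 0.640). Tgfb3 was higher, with 617.7 CPM in Q150X homeostasis and 157.2 in WT homeostasis, 3.93 times (2.02 to 8.37), and 5.05 times in the unmixed members. Tgfb3 was thus the higher in Q150X in both conditions. Markers of other cell types also differed between the genotypes at homeostasis. Fibroblast markers summed to 1927 CPM in Q150X homeostasis and 714.6 in WT homeostasis, Schwann cell markers to 654.8 and 200.1 CPM, macrophage markers to 840.1 and 57.2 CPM, and endothelial markers to 840.1 and 1615 CPM. A single Q150X homeostasis nucleus gave 15269 of the 80943 UMIs and held macrophage markers at 3275 CPM. In the unmixed members of Q150X and WT homeostasis, macrophage markers summed to 284.3 and 61.3 CPM. There, fibroblast markers summed to 1008 and 552.1 CPM and endothelial markers to 439.3 and 429.4 CPM. The part of these other markers in the genotype ratios at homeostasis was not tested beyond the values for unmixed members.

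The genes named by the rule at homeostasis were mostly outside these lists. Mdga2, a cell adhesion molecule, had 543.6 CPM in Q150X homeostasis and 42.9 in WT homeostasis, 12.7 times (4.06 to 63.8), from 9 nuclei and 1 nucleus. Egfr, the epidermal growth factor receptor, had 555.9 CPM in Q150X homeostasis and 85.8 in WT homeostasis, and Adamts12, a metalloprotease, 370.6 and 28.6 CPM. F13a1 had 383 and 14.3 CPM and Grm7 506.5 and 57.2 CPM, but 80.7% of the Q150X UMIs of F13a1, a macrophage marker, and 61% of those of Grm7 came from 1 nucleus. Epas1, the hypoxia-inducible factor HIF-2 alpha, was lower, with 234.7 CPM in Q150X homeostasis and 1043 in WT homeostasis, 0.225 times (0.128 to 0.377), and 0.463 times in the unmixed members. Mamdc2 had 86.5 and 471.7 CPM and St6galnac3, a sialyltransferase, 61.8 and 743.2 CPM in Q150X and WT homeostasis. The log2 ratio of St6galnac3 was -0.13 with the rule applied at 500 UMIs, and those of Egfr and Adamts12 were 0.997 and 0.904 in members with no pericyte gene. Gphn, gephyrin, had 1680 CPM in Q150X homeostasis and 5117 in WT homeostasis, 0.328 times (0.268 to 0.401), and was lower in Q150X homeostasis in the other classes too, at 0.214 times in pericyte nuclei, 0.325 in fibroblast nuclei and 0.266 in endothelial nuclei.

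The genotype comparisons at 3dpMI and at homeostasis share no library. Among 1462 genes measured in both, 97 were past 2-fold lower in Q150X at 3dpMI and 101 at homeostasis, and 16 were in both lists, 16.5% of the 3dpMI list and 15.8% of the homeostasis list. Past 2-fold higher were 5 at 3dpMI and 121 at homeostasis, with 2 in both. Over all 7763 genes measured at 3dpMI, 5.06% were past 2-fold lower and 5.55% past 2-fold higher in Q150X. That set is much wider than the 1462 genes, so its shares are not the background of the 97 and 5 genes above. Over all 1464 genes measured at homeostasis, 6.9% were past 2-fold lower and 8.33% past 2-fold higher. Vegfa itself was at the edge of detection in these nuclei, with 26 UMIs in Q150X 3dpMI, 31 in WT 3dpMI, 2 in Q150X homeostasis and 2 in WT homeostasis. The ratio of Q150X to WT at 3dpMI was 1.03 (0.586 to 1.79). The counts are of RNA at the 5′ end and do not tell the edited from the unedited allele.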

How the data were processed

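Nuclei were isolated from mouse heart, and libraries were made with the 10x Genomics 5′ kit, version 2, and sequenced on a NovaSeq instrument, per the labels' protocols. The deposited files hold raw UMI counts of 33954 genes per nucleus, which the authors obtained from Cell Ranger; per the file headers its version was 7.1.0. The submitters' processing notes also name the genome build GRCm39 and Scanpy, without giving their roles. All deposited barcodes had at least 500 UMIs, so barcodes were filtered before deposit, by settings not given in the sources used here. The files give no coordinates.

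The members, the gene lists and the comparisons were chosen with earlier results of these data known. Nuclei were picked by the rule in the text after filters on UMIs (500), genes (300) and mitochondrial UMIs (10%), which the opening of the results gives in full. Doublets were kept. Scrublet, as implemented in Scanpy 1.11.5, was run as an alternative and called 12, 16, 2 and 0 smooth muscle nuclei in Q150X 3dpMI, WT 3dpMI, Q150X homeostasis and WT homeostasis. Its own threshold marked 0% of nuclei in WT 3dpMI and 0.0154% in Q150X homeostasis, so the highest scores were taken there instead.

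For each library, UMIs of the nuclei of a class were added up and expressed as CPM of that class. Sums have exact Poisson intervals, shares exact binomial (Clopper-Pearson) intervals, ratios of sums exact conditional binomial intervals and ratios of shares log intervals, all at 95%. No test was run, as each group is 1 library. A gene was measured in a comparison when it had at least 20 UMIs over both libraries, and past 2-fold means a ratio of at least 2 or at most 0.5. A fold against 0 UMIs was not given, and list medians used a floor of 3 counts there. The ratio intervals were tested on simulated data. Pericyte, fibroblast, endothelial, macrophage and cardiomyocyte nuclei were picked from the same filtered nuclei by their own marker lists.

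Single genes were named by a rule: per comparison the 5 highest and 5 lowest ratios, ranked by the 95% bound nearest to 1, with at least 30 UMIs and a level at least that of all other nuclei. Up to 3 members at each end of a list, further members by role, 15 genes by specificity (at least 10 UMIs in each library, 1116 candidates), the genes of the rule and Vegfa were also named. Mitochondrial, ribosomal protein, haemoglobin and sex-linked genes and unnamed gene models were left out of the ranking. A member of a gene list is not reported here. The scripts used matplotlib 3.10.9, pandas 2.3.3, scipy 1.17.1, numpy 2.4.6 and Python 3.11.15.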

Additional observations from a re-analysis of the deposited data

Results flagged for a closer look

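In smooth muscle nuclei, 2 genes were past 2-fold in opposite directions after infarction in the genotypes. Grm7, a metabotropic glutamate receptor, had 119 UMIs in 20 nuclei of Q150X 3dpMI, 206 in 31 nuclei of WT 3dpMI, 41 in 6 nuclei of Q150X homeostasis and 4 in 2 nuclei of WT homeostasis. Its level at 3dpMI was 0.487 times (0.339 to 0.713) that at homeostasis in Q150X and 6.1 times (2.35 to 22.6) in WT. A single nucleus gave 61% of the Grm7 UMIs in Q150X homeostasis, and in the unmixed members the Q150X ratio was 0.700 (0.303 to 1.71). Mdga2, a cell adhesion molecule, had 67 UMIs in 26 nuclei of Q150X 3dpMI, 134 in 33 nuclei of WT 3dpMI, 44 in 9 nuclei of Q150X homeostasis and 3 in 1 nucleus of WT homeostasis. It was at 0.256 times (0.172 to 0.383) in Q150X and 5.29 times (1.77 to 26.0) in WT. Both WT ratios rest on a few UMIs at homeostasis. Schwann cell markers summed to 105.8 CPM in Q150X 3dpMI, 235.3 in WT 3dpMI, 654.8 in Q150X homeostasis and 200.1 in WT homeostasis in the same nuclei, and their part in these ratios was not tested. The difference between the genotypes was not tested, since each group is 1 library.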

How the results depend on the processing

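Under the 15 alternatives, 535 recomputed values of single genes kept their direction and their side of 2-fold, 14 fell short of 2-fold and 8 reversed. Of list medians, 1220 values moved little, 192 moved and 5 reversed. Of shares, 22 stayed within the main interval, 7 moved and 3 reversed, and of counts past 2-fold 35 stayed within 1.5 times and 21 did not. The main counts were 824 for Q150X over WT at 3dpMI, 223 for Q150X over WT at homeostasis, 1859 for 3dpMI over homeostasis in Q150X and 2102 in WT. In this order they were 352, 103, 449 and 554 without nuclei with 3 markers of another class, 353, 97, 316 and 272 with the rule applied at 500 UMIs, 271, 50, 653 and 782 with at least 50 UMIs per gene, and 6619, 6539, 10025 and 10619 with no filter. Without nuclei with any pericyte gene they were 53 for Q150X over WT at homeostasis, 624 for injury in Q150X and 1017 in WT, and with sums thinned to equal totals, an alternative added after seeing the data, 516 and 375 for injury in Q150X and WT. The smooth muscle share at 3dpMI relative to homeostasis was 1.55 in Q150X and 1.19 in WT. It was 0.63 and 0.596 without nuclei with 3 other markers, 0.684 and 0.611 without any pericyte gene, and 0.421 and 0.479 with the rule at 500 UMIs. Over nuclei under 2% cardiomyocyte UMIs it was 0.845 in WT. The Q150X to WT ratio of shares at 3dpMI was 0.554 without nuclei with 3 other markers, 0.53 without any pericyte gene and 0.595 with the rule at 500 UMIs.

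On the log2 scale these values reversed, where list medians were counted only if the main median was past 2-fold. With the rule at 500 UMIs they were Nebl (0.45) and F13a1 (-0.13) for Q150X over WT at homeostasis, the cell cycle median for Q150X over WT at 3dpMI (-0.0696), Adam12 in WT (-0.55) and Mcph1 in Q150X (-1.92). Without nuclei with 3 markers of another class they were the endothelial (0.52) and Schwann cell (0.42) marker medians, Pcdh11x (-0.85) and Il33 (0.74), all for Q150X over WT at 3dpMI. Without any pericyte gene they were Nebl at homeostasis (1.32) and Il33 at 3dpMI (3.83). With no filter on low counts they were the medians of the pericyte genes of the rule in WT (-0.27) and of the interferon genes in Q150X (-0.46). Apart from fewer nuclei or genes entering, the cause was not tested.

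No paired analysis was possible because each group is 1 library. With 49 to 137 nuclei and 69967 to 590720 UMIs per group, genes under 20 UMIs could not be compared, and animals, batch and group cannot be told apart.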
